A study of Drosophila melanogaster with 12 samples.

Results

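Transcripts of 7 enzymes of glycolysis and glycerol phosphate synthesis were followed through 2 days in heads of adult Drosophila melanogaster. The genes were chosen by name: of 9 listed enzymes, Pgi, Pfk, Ald1, Gapdh1, Pgk, Eno and Gpdh1 each had 1 probe set annotated with that symbol alone, out of 10844 genes that had such a probe set and 13966 probe sets tested. The probe set that carries the symbol Tpi also carries that of another gene, so no level is given for Tpi, and Gapdh2 was not analysed here. All flies were y w; tim01, that is, they carried the yellow and white marker mutations and a loss-of-function allele of timeless, a component of the circadian clock. Entrainment lasted 3 days, with lights on for 12 h and off for 12 h. Sampling every 4 h then covered a light-dark day (LD, ZT2 to ZT22, counted in hours from lights-on) and, after it, a day without light (DD, CT2 to CT22, counted from the expected lights-on). Each of the 12 arrays was 1 time point, made from about 100 to 200 heads and 25 µg of total RNA. This gave 3 arrays for each of 4 phases: light and dark in LD, and subjective day and subjective night in DD. The sources used here state neither sex nor age of the flies, and wild-type flies were not analysed here.

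Glycolysis splits glucose to pyruvate. Pgi interconverts glucose 6-phosphate and fructose 6-phosphate, Pfk commits the sugar to breakdown, and Ald1, aldolase, cleaves it into triose phosphates. Gapdh1, Pgk and Eno act in the lower part of the pathway, which yields ATP and NADH. Gpdh1 draws from the triose pool: it reduces dihydroxyacetone phosphate to glycerol 3-phosphate, which is the backbone of triglycerides and one arm of the shuttle that carries reducing equivalents into mitochondria. In insects this shuttle is best known from flight muscle, while in the head glia are a major site of sugar breakdown that feeds neurons.

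All values are log2 RMA signals, a scale on which 1 unit is a doubling, and array medians lay between 4.10 and 4.14. In these bulk samples, fewer cells of a type and less RNA per cell cannot be told apart. Since each array was another hour, the SD within a phase and the SE of a contrast measure the spread between hours, technical differences included. All 5 measured photoreceptor markers lay above the array median. Gut and male reproductive tract markers were high at ZT2 (mean 0.79 and 0.73 relative to each gene's own mean), at CT2 (0.48 and 0.41) and, for the male list, at ZT18 (0.27). RNA quality also moved with the day: the 3′ minus 5′ signal of the eIF-4a control transcript was 2.89 to 3.32 in LD and 2.56 to 3.04 in DD. The muscle marker level, over 17 genes, was -0.14 to 0.01 in LD and -0.01 to 0.15 in DD. Of these 17 muscle genes 11 had a mean above the array median, among them Mlc2 (10.10) and Mf (8.35). The flight muscle genes Act88F (mean 3.17), TpnC4 (1.91) and fln (2.34) lay below the array medians.

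No enzyme passed the threshold of 0.05 on the adjusted p in any of 8 comparisons with limma without a block for clock hour, and those closest to it were Pgi and Gpdh1. The share of all probe sets that passed was 0.129% for light against dark phase in LD, 0.0644% for subjective day against night in DD, 0% for the difference between these contrasts, 0.186% for light phase against subjective day, 0% for dark phase against subjective night, 0.0215% for the LD against the DD day, 0.107% for a rhythm in LD and 0.00716% for a rhythm in DD. With clock hour as a block for light phase against subjective day, 142 of 13966 probe sets passed, Gpdh1 among them (limma, adjusted p = 0.021). The LD array was above the DD array of the same hour at 6 of 6 hours for Pgi and at 5 of 6 for Gpdh1. The other 5 enzymes had mean differences between the days from -0.09 to 0.05. How many of all probe sets had such agreement over the hours was not counted. Of 50 other genes of sugar metabolism, Got1, Men-b and PCB also had 6 of 6, and bigmax and G6P had 0 of 6. Levels by hour are drawn for each gene on panels of equal height.

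**Figure D1:**
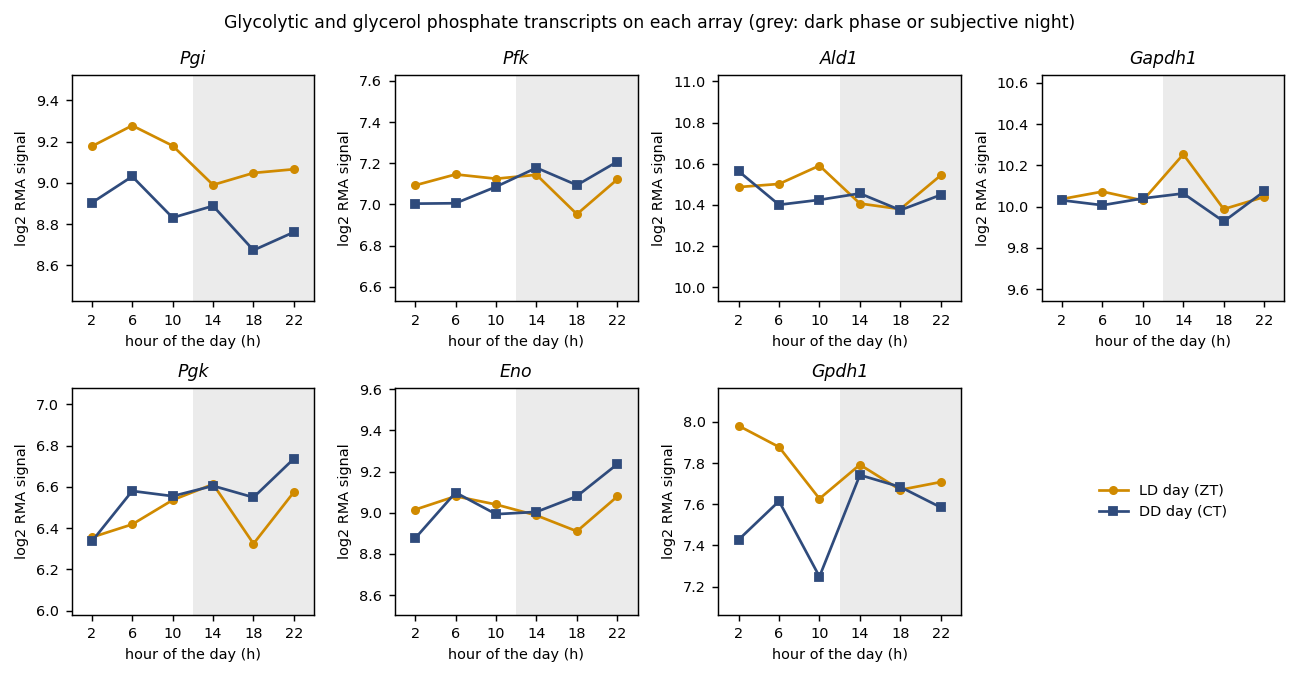
Log2 RMA signal (y axis) of each gene against hour of the day (x axis, in h) in LD (orange circles) and DD (blue squares), 1 array per point, with the dark phase or subjective night in grey. The 2 lines of Pgi stay apart at all 6 hours, and those of Gpdh1 are apart at 2, 6 and 10 h.

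The transcript of Pgi, which acts at the branch point of glycolysis and the pentose phosphate pathway, read 9.18, 9.28, 9.18, 8.99, 9.05 and 9.07 from ZT2 to ZT22. In DD it read 8.90, 9.03, 8.83, 8.89, 8.67 and 8.76 from CT2 to CT22. Each LD array was above the DD array of the same hour, by 0.10 to 0.38, and the ranges of the days overlapped only through ZT14 and CT6.

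Pgi averaged 9.12 ± 0.11 over the LD arrays and 8.85 ± 0.12 over the DD arrays (SD, n = 6 per day). The LD level was 1.21-fold higher, a log2 difference of 0.28 ± 0.06 (SE, 95% interval 0.16 to 0.39 before adjustment), which did not pass (limma, adjusted p = 0.073). In this comparison 3 probe sets (0.0215%) passed and 1548 had an unadjusted p under 0.05. By phase it was 0.29 ± 0.08 between LD light phase and DD subjective day (limma, adjusted p = 0.143, and 0.0964 with clock hour as a block). Between LD dark phase and DD subjective night it was 0.26 ± 0.08 (limma, adjusted p = 0.998). The groups were separate in both, as were those of 6.39% and 4.38% of all probe sets in that direction. Leaving out 1 array moved Pgi past the threshold in 3 of 12 cases, with an adjusted p from limma of 0.0489 without ZT2, 0.0258 without CT6 and 0.0453 without CT14. With the eIF-4a quality measure as a covariate the difference was 0.25 (adjusted p = 0.798), and without ZT2, ZT18 and CT2 it was 0.28 (adjusted p = 0.147). The quality measure itself averaged 3.15 in LD and 2.80 in DD, so the fit with it cannot fully tell its part from that of the day.

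In LD the light phase, at 9.21 ± 0.06, did not overlap the dark phase, at 9.03 ± 0.04 (SD, n = 3 arrays each), a log2 difference of 0.18 ± 0.08 (SE, limma, adjusted p = 0.769). Pgi was the 1 enzyme of 7 with this separation, against 5.62% of all probe sets. Among the marker lists, only the photoreceptor level was separate between these phases. The photoreceptor level was 0.04 to 0.17 in the light phase and -0.16 to -0.0021 in the dark phase, with 4 of 5 markers positive and a median log2 difference of 0.21. Levels of the glia, gut and male lists overlapped between the phases, and in the light phase gut and male levels were high at ZT2 only. Of the glia markers 7 of 9 were positive (median 0.04), of the gut markers 16 of 19 (median 0.17) and of the male reproductive tract markers 19 of 21 (median 0.16). Fewer were positive for fat body (2 of 10, median -0.11), neuron (2 of 7, median -0.07) and muscle (6 of 17, median -0.05), and 0 of each list passed with limma. The part of these cell types in the values of Pgi was not tested. In DD the subjective day stood at 8.92 ± 0.10 and the subjective night at 8.77 ± 0.11, a difference of 0.15 ± 0.08 (adjusted p = 0.829), and the arrays overlapped. The test of the difference between these contrasts gave 0.03 ± 0.11 (95% interval -0.20 to 0.26, adjusted p = 0.998).

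Gpdh1, the enzyme of glycerol 3-phosphate synthesis, had the widest range of the 7 over the 12 arrays, 0.73, wider than that of 96.6% of all probe sets. The range of Pgi, 0.60, was wider than that of 92.5% of them. Gpdh1 read 7.98, 7.88, 7.63, 7.79, 7.67 and 7.71 from ZT2 to ZT22. From CT2 to CT22 it read 7.43, 7.62, 7.25, 7.74, 7.68 and 7.59. The lowest values were the 3 of the DD subjective day and CT22, and the highest those of ZT2 and ZT6.

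Gpdh1 was 1.32-fold higher in the LD light phase, at 7.83 ± 0.18, than in the DD subjective day, at 7.43 ± 0.18 (SD, n = 3 arrays each). The groups did not overlap, and the log2 difference of 0.40 ± 0.10 (SE, 95% interval 0.19 to 0.61 before adjustment) did not pass (limma, adjusted p = 0.109). In this comparison 26 probe sets (0.186%) passed and 1605 had an unadjusted p under 0.05. With clock hour as a replicate block it passed (limma, adjusted p = 0.021, with 142 of all probe sets passing in place of 26). Without CT6 the difference was 0.49 and passed (limma, adjusted p = 0.0288), with the eIF-4a covariate it was 0.23 (adjusted p = 0.808), and without ZT2, ZT18 and CT2 it was 0.32 (adjusted p = 0.446). Between LD dark phase and DD subjective night the levels were 7.72 ± 0.06 and 7.67 ± 0.08, a difference of 0.05 ± 0.10 (adjusted p = 0.998). Over the whole days it was 0.23 ± 0.07 (adjusted p = 0.229), and with the eIF-4a covariate 0.07 (adjusted p = 0.99). That covariate itself differed between the days, as given for Pgi. Of the 17 muscle markers 2 had a positive LD minus DD difference, with a median of -0.11, and of the neuron markers 1 of 7 (median -0.06). Positive were also 7 of 10 fat body markers (median 0.02) and 6 of 9 glia markers (0.03). For gut it was 13 of 19 (0.01), for the male reproductive tract 19 of 21 (0.09) and for photoreceptors 4 of 5 (0.01). In each list 0 passed with limma, and the part of these cell types in the values of Gpdh1 was not tested.

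**Figure D2:**
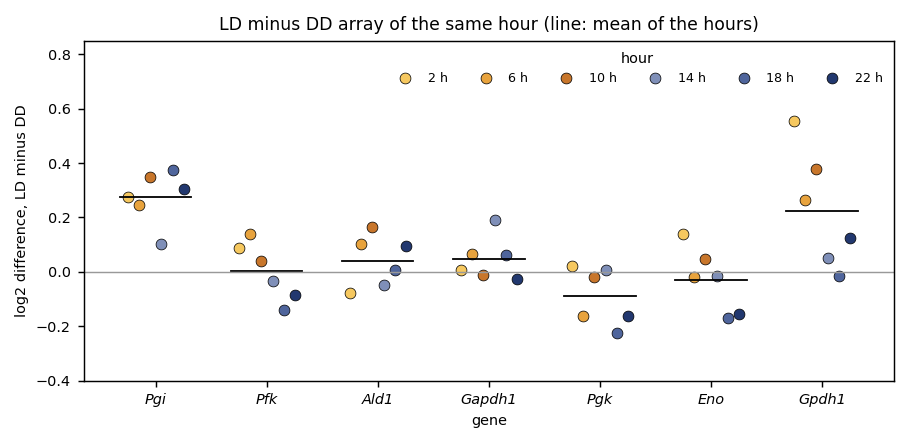
Log2 difference between the LD and the DD array of the same hour (y axis) for each gene (x axis), 1 point per hour, with a line at the mean of the 6 hours. All 6 points of Pgi lie above 0, and the highest point of the plot is that of Gpdh1 at 2 h, 0.55.

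The day-night contrasts of Gpdh1 had opposite signs in the 2 days. In LD the light phase was above the dark phase by 0.11 ± 0.10 (limma, adjusted p = 0.957). This LD difference was 0.03 without ZT2, the array with the highest Gpdh1 value. Without ZT2, ZT18 and CT2 it was 0.0025 in LD, and the DD difference was -0.24. In DD the subjective day was below the night by a log2 difference of -0.24 ± 0.10 (adjusted p = 0.817), and CT6 and CT22 made the groups overlap. The difference between these contrasts was 0.35 ± 0.14 (95% interval 0.05 to 0.64 before adjustment) and did not pass (limma, adjusted p = 0.935). In that test 0 probe sets (0%) passed with limma and 727 had an unadjusted p under 0.05.

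Pfk, the main control point of glycolytic flux, stayed within 0.26 over the 12 arrays. In LD it read 7.09, 7.15, 7.12, 7.14, 6.95 and 7.12 in order of hour. In DD the values were 7.004, 7.01, 7.09, 7.18, 7.09 and 7.21. The days overlapped, with a difference of 0.00 ± 0.05 (limma, 95% interval -0.10 to 0.11, adjusted p = 0.995). In DD the 3 arrays of the subjective day lay below the 3 of the night, at 7.03 ± 0.05 against 7.16 ± 0.06, a difference of -0.13 ± 0.07 (adjusted p = 0.829). Of all probe sets 4.82% showed such a separation in that direction. The LD light phase also lay above the DD subjective day without overlap, by 0.09 ± 0.07 (adjusted p = 0.669). Pfk, Pgi and Gpdh1 were thus 3 of 7 genes with this separation, against 6.39% of all probe sets.

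Ald1 had the narrowest range of the 7 genes, 0.22, narrower than that of most probe sets (6.27% had a smaller one). Its levels ran from 10.38 at ZT18 to 10.59 at ZT10 in LD and from 10.38 at CT18 to 10.56 at CT2 in DD. It averaged 10.49 ± 0.08 over the LD arrays and 10.45 ± 0.07 over the DD arrays (SD, n = 6 per day), a difference of 0.04 ± 0.06 (limma, 95% interval -0.08 to 0.16, adjusted p = 0.828).

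Gapdh1, which catalyses the NADH-yielding step, was level except for 1 array. It read 10.25 at ZT14 and between 9.93 and 10.07 on the other 11 arrays. It averaged 10.07 ± 0.09 over the LD arrays and 10.02 ± 0.05 over the DD arrays (SD, n = 6 per day), a difference of 0.05 ± 0.06 (limma, 95% interval -0.07 to 0.17, adjusted p = 0.797). Whether this probe set also binds transcripts of the related gene Gapdh2 was not tested.

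The array also carries 3 control probe sets for a GAPDH transcript, placed in its 5′ part, its middle and its 3′ part. Which Gapdh gene they were designed on is not stated in those sources. The 3′ control read 10.64, 10.55, 10.52, 10.63, 10.51 and 10.58 from ZT2 to ZT22. In DD it read 10.31, 10.40, 10.19, 10.31, 10.40 and 10.47 from CT2 to CT22. The days did not overlap. The means were 10.57 ± 0.06 and 10.35 ± 0.10 (SD, n = 6 arrays each), a difference of 0.22 (exact two-sided permutation test, p = 0.00216, the smallest this design allows, and adjusted p = 0.013 over 6 control probe sets). After the same adjustment it did not pass without ZT2, ZT18 and CT2 (exact permutation test, adjusted p = 0.0952) or with clock hour as a block (exact sign-flip test, adjusted p = 0.0938).

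The other GAPDH controls showed smaller differences. The middle one was at 9.14 ± 0.11 in LD and 9.07 ± 0.06 in DD, a difference of 0.07 (exact permutation test, adjusted p = 0.276), and the 5′ one at 8.12 ± 0.13 and 8.06 ± 0.06, a difference of 0.06 (exact permutation test, adjusted p = 0.369). The Gapdh1 probe set differed by 0.05, and no test compared these probe sets with each other. The 3′ minus 5′ signal was higher in LD for both control transcripts, 2.45 against 2.29 on average for GAPDH and 3.15 against 2.80 for eIF-4a. For eIF-4a it was the 5′ control that was lower in LD, by a log2 difference of -0.31 (exact permutation test, adjusted p = 0.0584), while its 3′ control differed by 0.04 (exact permutation test, adjusted p = 0.506). The part of RNA quality in the GAPDH difference was not tested.

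**Figure D3:**
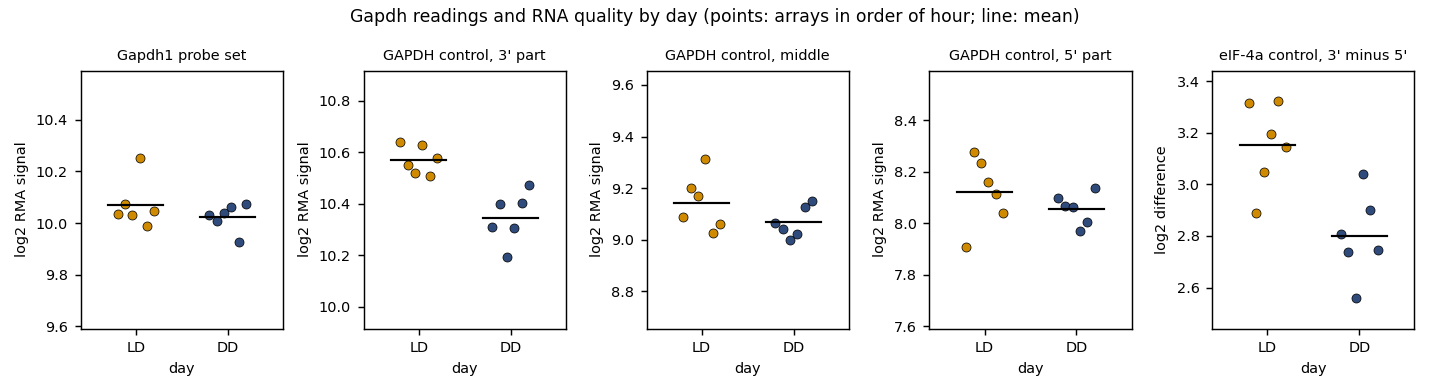
Log2 RMA signal (y axis) of the Gapdh1 probe set and the 3 GAPDH controls, and the log2 difference between the 3′ and 5′ controls of eIF-4a, by day (x axis), with 1 point per array and a line at the mean of 6 arrays. The days are separate for the 3′ GAPDH control, at 10.51 to 10.64 in LD and 10.19 to 10.47 in DD, and overlap in the other panels.

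Pgk and Eno, which act in the ATP-yielding lower part of the pathway, had their highest values at CT22. In order of hour, Pgk stood at 6.36, 6.42, 6.54, 6.61, 6.32 and 6.58 on the LD arrays and at 6.34, 6.58, 6.56, 6.61, 6.55 and 6.74 on the DD arrays. Eno stood at 9.02, 9.08, 9.04, 8.99, 8.91 and 9.08 in LD, and at 8.88, 9.10, 8.99, 9.004, 9.08 and 9.24 in DD. The lowest values of both genes were on ZT2, ZT18 and CT2 for Pgk and on ZT18 and CT2 for Eno, and these are the arrays with raised gut or male transcripts. Their part in these values was not tested. The LD minus DD difference was -0.09 ± 0.06 for Pgk (limma, 95% interval -0.23 to 0.05, adjusted p = 0.653). For Eno it was -0.03 ± 0.06 (limma, 95% interval -0.15 to 0.09, adjusted p = 0.888). In DD the subjective day was below the night by -0.14 ± 0.09 for Pgk and by -0.12 ± 0.08 for Eno on the log2 scale (limma, adjusted p = 0.858 and 0.87), and the groups overlapped.

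**Figure D4:**
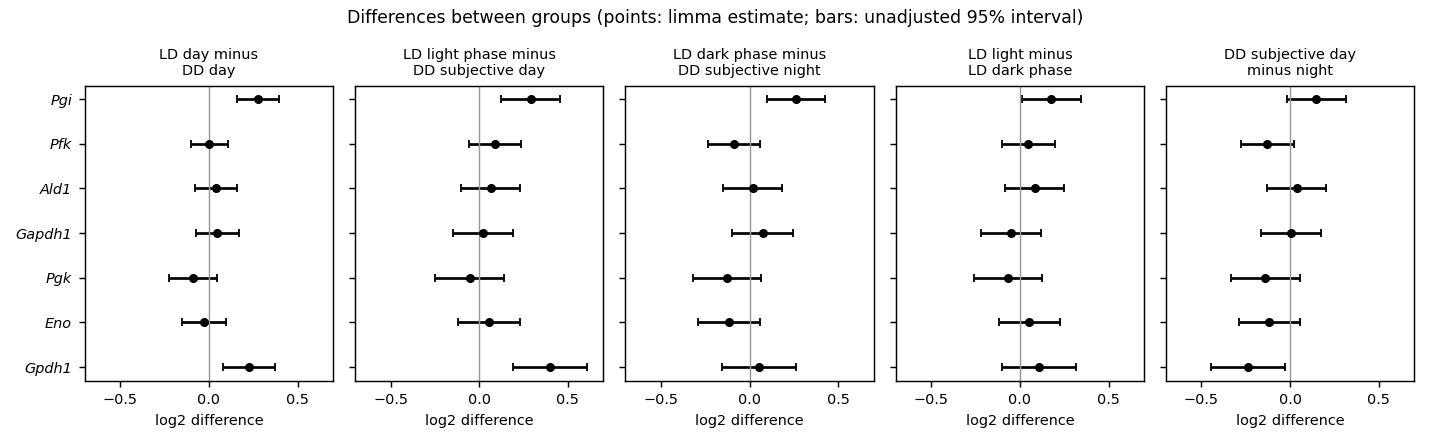
Log2 differences between groups (x axis) for each gene (y axis), with points for limma's estimate and bars for its unadjusted 95% interval, in 5 comparisons. The fit had no block for clock hour. The intervals of Pgi lie above 0 in the first 4 panels, and that of Gpdh1 runs from 0.19 to 0.61 for LD light phase minus DD subjective day and from -0.45 to -0.03 for DD subjective day minus night.

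Counted over the comparisons, 5 of 7 genes were positive for light against dark phase in LD, with a median of 0.05, where the median of all probe sets was -0.01. For subjective day against night in DD 3 of 7 were positive, with a median of -0.12 against 0.01. The difference of these contrasts was positive for 6 of 7, with a median of 0.07 against -0.01. For light phase against subjective day it was also 6 of 7, with a median of 0.06 against -0.02. None of the 7 passed with limma without a block for clock hour (0 of 7 in each). The numbers with an unadjusted p under 0.05 were 1, 1, 1 and 2 in this order, 1 for dark phase against subjective night and 2 for the whole days, where the shares of all probe sets were 6.26%, 5.84%, 5.21%, 11.5%, 4.87% and 11.1%. In the comparison of dark phase and subjective night, where 0 of all probe sets passed with limma, 680 had an unadjusted p under 0.05.

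A 24 h rhythm was fitted to each day as a cosine curve, to ask whether these transcripts cycled without timeless function. None of the 7 passed in LD or DD (limma's F test, smallest adjusted p = 0.961 in LD and 1 in DD, with 0 of 7 at an unadjusted p under 0.05). The fitted amplitude, from mean to peak, was 0.13 in LD and 0.13 in DD for Pgi, and 0.12 and 0.13 for Gpdh1. The median of the 7 was 0.06 in LD and 0.07 in DD, and that of all probe sets was 0.07 in each. The fitted peak of Pgi fell at 5.37 h in LD and 6.45 h in DD, while that of Gpdh1 fell at 3.22 h in LD and 18.2 h in DD.

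The 7 transcripts were also compared in pairs across the arrays. Of 21 pairs, 14 had a positive Pearson correlation over the 12 arrays, with a median r of 0.19 and a range from -0.47 to 0.72, and 0 passed after adjustment over the pairs. The closest pair was Pgk and Eno (r = 0.72, permutation p = 0.00703, adjusted p = 0.148, and rho = 0.44, permutation p = 0.152, adjusted p = 0.398). Without the 2 arrays farthest from the median of Pgk, r was 0.47, and within the days it was 0.42 in LD and 0.90 in DD. Pfk and Pgk followed (r = 0.68, permutation p = 0.0152, adjusted p = 0.16, and rho = 0.65, permutation p = 0.0251, adjusted p = 0.264). That correlation was 0.37 without the 2 arrays farthest from the median of Pfk, and 0.68 and 0.77 within LD and DD. Pgi and Gpdh1 had r = 0.54 (permutation p = 0.0714, adjusted p = 0.375) and rho = 0.49 (permutation p = 0.11, adjusted p = 0.398), with r = 0.60 without 2 arrays, 0.39 within LD and -0.08 within DD.

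The mean profile of the 7 genes, each relative to its own mean, was highest at ZT6 (0.08) and lowest at CT2 (-0.10). Among 6194 other probe sets with 1 symbol and a mean above the array median, the 5 most like it over the 12 arrays were those of Ttc7 (r = 0.93), Acer (0.90), osy (0.89), CG17739 (0.88) and FASN1 (0.88). FASN1 encodes a fatty acid synthase. It read 9.16, 9.37, 9.10, 9.28, 8.82 and 8.87 in LD and 8.49, 8.74, 8.42, 8.83, 8.70 and 8.91 in DD. Since these genes were picked for their likeness out of this set, r is given as a description, and the points share the arrays and their normalization. The deviations in the mean profile were not scaled, so Gpdh1 and Pgi weigh most in it (SD 0.19 and 0.18 over the 12 arrays). The SD was 0.07 for Ald1 and 0.08 for Pfk and Gapdh1, so likeness to the profile is not likeness to each enzyme.

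The enzymes around these steps were examined through 63 further genes of sugar metabolism, of which 50 were measured by a probe set with 1 symbol. In each of the 8 comparisons 0 of the 50 passed with limma without a block for clock hour, higher or lower. Results of the 50 with clock hour as a block are not given here, also for light phase against subjective day. At an unadjusted p under 0.05 there were 6 for light against dark phase, 5 for subjective day against night, 0 for the difference of these contrasts, 5 for light phase against subjective day, 2 for dark phase against subjective night and 6 for the LD against the DD day. For the rhythms there were 2 in LD and 1 in DD. The shares of all probe sets were those given for the enzymes, between 4.87% and 11.5%, and 5.73% and 3.72% for the rhythms. The median LD minus DD difference was 0.01 for the 50 genes and -0.01 for all probe sets.

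Among the steps that feed Pgi, the hexokinase gene Hex-A read 6.16, 6.10 and 6.06 in the LD light phase and 5.72, 5.69 and 5.90 in the dark phase. The groups did not overlap, as for 5.62% of all probe sets in that direction, and the log2 difference was 0.34 ± 0.11 (limma, adjusted p = 0.508). The trehalose transporter gene Tret1-1 was at 7.76 ± 0.06 in the light and 7.49 ± 0.13 in the dark (SD, n = 3 arrays each), a difference of 0.27 ± 0.09 (limma, adjusted p = 0.48). Treh, which encodes trehalase, differed by 0.22 ± 0.08 between LD light phase and DD subjective day (adjusted p = 0.31). The glycogen synthase gene Glys differed by 0.29 ± 0.10 in the same comparison (adjusted p = 0.282), in which 33 of the 50 genes were positive. Downstream of glycolysis, the mitochondrial pyruvate carrier gene Mpc1 was lower in the DD subjective day than in the night, at -0.20 ± 0.08 (limma, adjusted p = 0.801). Its groups did not overlap, as for 4.82% of all probe sets in that direction.

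In the list of malate-aspartate exchange, with which the malic enzyme genes were grouped, Got1 and Men-b stood nearest to Pgi in their LD against DD values. Got1, an aspartate aminotransferase gene, was above its DD value at 6 of 6 hours, with means of 6.33 and 6.10 and a difference of 0.23 ± 0.06 (limma, adjusted p = 0.177). The malic enzyme gene Men-b was also higher at 6 of 6 hours, by 0.26 ± 0.10 (limma, adjusted p = 0.336). PCB, pyruvate carboxylase, differed by 0.18 ± 0.08 (limma, adjusted p = 0.4) and was higher at 6 of 6 hours. The share of all probe sets with 6 of 6 was not counted. In the sugar-sensing transcription factor family, bigmax was lower at all 6 hours, at -0.21 ± 0.07 (limma, adjusted p = 0.25), and Mondo was lower in the light than in the dark phase of LD, at -0.21 ± 0.07 (adjusted p = 0.508).

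The other genes nearest to the threshold in each list did not pass either. In the comparison of light and dark phase in LD, the log2 difference was 0.22 ± 0.10 for Hex-t2, a hexokinase paralogue (limma, adjusted p = 0.792). In the same comparison it was -0.15 ± 0.07 for the glucose transporter gene Glut1 and -0.17 ± 0.08 for the transcription factor gene sug (limma, adjusted p = 0.783 and 0.833), and 0.18 ± 0.12 for Rpi, of the pentose phosphate pathway (adjusted p = 0.916).

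In DD, Gk2, a glycerol kinase gene that offers another route to glycerol 3-phosphate, was lower in the subjective day than in the night, at -0.29 ± 0.10 (limma, adjusted p = 0.77). Its groups did not overlap, as for 4.82% of all probe sets in that direction, and its mean of 3.79 was below the array medians. In the same comparison Glyp, glycogen phosphorylase, stood at -0.20 ± 0.08, the malic enzyme gene Men at -0.16 ± 0.09, Pdk, the kinase of pyruvate dehydrogenase, at -0.16 ± 0.08 and Hex-C at -0.13 ± 0.08 (limma, adjusted p from 0.825 to 0.831). Pepck2, of gluconeogenesis, stood at 0.20 ± 0.09 (adjusted p = 0.825).

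Between the days, UGP, which makes the UDP-glucose of glycogen synthesis, differed by 0.16 ± 0.08 (limma, adjusted p = 0.462). G6P, glucose 6-phosphatase, was at -0.16 ± 0.08 in LD light phase minus DD subjective day (limma, adjusted p = 0.455). In LD dark phase minus DD subjective night, Rpe was at -0.19 ± 0.09, Pgls at -0.11 ± 0.08 and the pyruvate dehydrogenase gene muc at -0.17 ± 0.08 (limma, adjusted p = 0.998 for each). In the difference of the day-night contrasts, where Gpdh1 had 0.35, Gpo2, of the mitochondrial arm of the shuttle, had -0.27 ± 0.15 and the paralogue Gpdh2 had -0.20 ± 0.11 (limma, adjusted p = 0.935 for each). The paralogues of Gpdh1 were dim, with Gpdh2 at 2.499 to 2.82 and Gpdh3 at 1.95 to 2.27, below the array medians. Hex-t2 (mean 2.71), Gpo2 (3.39), Pepck2 (3.48) and G6P (4.04) also had means below them.

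**Figure D5:**
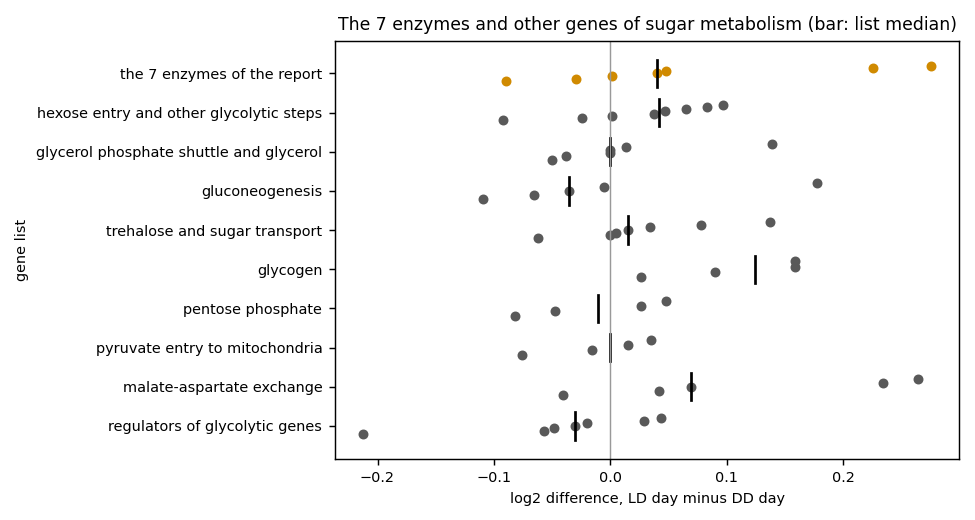
Log2 difference between the LD and the DD day (x axis) for the 7 enzymes (orange) and for 50 other genes of sugar metabolism by list (y axis), with 1 point per gene and a bar at the list median. Pgi at 0.28 and Gpdh1 at 0.23 lie at the right edge with Men-b at 0.26 and Got1 at 0.23, and bigmax lies at the left at -0.21.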

How the data were processed

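RNA from heads was hybridised to 12 arrays, 1 per time point. The deposited table holds log2 values that the authors made with RMA, per the submitters' processing notes. RMA equalises the distributions of the arrays and understates differences at low signal. Neither counts nor detection calls were used, and the number of arrays limits the precision. The correlation between arrays ran from 0.988 to 0.997, and at most 56 of 14010 values were identical between 2 arrays.

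After removal of 44 control probe sets, linear models were fitted to all 13966 probe sets and 12 arrays with limma 3.58.1 (R 4.3.3), by lmFit and by eBayes with an intensity trend. One model had a mean per phase (8 residual degrees of freedom), and the other a mean, cosine and sine of 24 h per day (6 residual degrees of freedom). Benjamini-Hochberg adjustment covered all probe sets, with a threshold of 0.05. The 6 GAPDH and eIF-4a controls were compared by exact permutation, and correlations by 100000 permutations. Steps were tested on simulated data. Genes were named from 12443 probe sets with 1 symbol, 12394 of them matched to RefSeq by Entrez number. All measured enzymes are named. Genes of each other list were named from the 3 with the smallest p, beside the 5 probe sets most like the enzymes' mean profile. Gpdh3 was named after its values were seen, as a paralogue. The enzymes and lists were chosen with earlier results of these data known. No label says that arrays were separate cultures of flies, so p-values measure the spread between these samples. The deviations of same-hour LD and DD arrays from their group means correlated at 0.45, 0.30 and 0.27 for hours 2, 6 and 10, each LD array correlating best with its own hour, and at 0.031, 0.056 and 0.11 for hours 14, 18 and 22, where none did. By a bar of 0.1 for every pair, hours were taken as pairs for light phase against subjective day only. Adjusted p-values, intervals and counts of that comparison are from the fit without a block unless the block is named.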

Additional observations from a re-analysis of the deposited data

Results flagged for a closer look

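In 2 of 20 sets of 6 arrays of a day (the 7 enzymes and the 3 GAPDH controls, in LD and in DD), 1 array lay far from the others by Dixon's criterion for 6 values at 95%. By chance about 1 in 20 such sets is marked. Pfk was low at ZT18, at 6.953, where the gap to the next array was 0.73 of the range of the LD day. ZT18 is among the arrays with raised male reproductive tract transcripts. Gapdh1 was high at ZT14, at 10.254, with a gap of 0.68 of the range. On that array the middle GAPDH control was also the highest of the 12, at 9.31.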

How the results depend on the processing

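Removing the trend, robust moderation and testing only probe sets brighter than the median left all enzymes below the threshold, as did leaving out ZT2, ZT18 and CT2 and the eIF-4a covariate. Each enzyme has 1 probe set, so averaging probe sets gives the values already reported. With clock hour as a replicate block, 1 enzyme passed for light phase against subjective day (Gpdh1, limma, adjusted p = 0.021) and 1 for the LD against the DD day (Pgi, adjusted p = 0.0306), and 142, 118 and 3 of all probe sets passed for these and for the difference of the day-night contrasts. Over all 6 hours the arrays were not taken as pairs. Under the block no other enzyme's call differed.

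The count over all probe sets moved to 15 for light phase against subjective day without the trend. It became 4 (DD day-night), 2 (difference), 59 (light phase against subjective day), 19 (LD against DD) and 24 (LD rhythm) with robust moderation. With bright probe sets only it was 42 for light phase against subjective day and 20 for LD against DD. Without ZT2, ZT18 and CT2 it was 31 (LD light-dark), 26 (LD against DD), 7 (LD rhythm) and 2 (DD rhythm). With the covariate it was 3 (LD light-dark), 16 (DD day-night), 4 (difference), 2 (light phase against subjective day) and 0 (LD against DD). Leaving out 1 array gave 2 to 54 (LD light-dark), 0 to 18 (DD day-night), 0 to 2 (difference), 1 to 168 (light phase against subjective day), 0 to 95 (LD against DD), 1 to 22 (LD rhythm) and 1 to 2 (DD rhythm), with 0 to 1 enzymes passing in each of light phase against subjective day and LD against DD. The causes were not tested.

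Signs turned only for small differences that did not pass. Without ZT2, ZT18 and CT2 these were Ald1 in DD day-night (-0.014) and Pgk in the difference (-0.054). With the covariate they were Gapdh1 in DD day-night (-0.019), Pgk in light phase against subjective day (0.13), Pgk (0.028), Eno (0.011) and Gpdh1 (-0.092) in dark phase against subjective night, and Pgk (0.078) and Eno (0.11) in LD against DD. Leaving out 1 array gave, for LD light-dark, -0.012 to 0.084 for Pfk and -0.10 to 0.029 for Gapdh1. For DD day-night it gave -0.014 to 0.068 for Ald1 and -0.043 to 0.03 for Gapdh1. For the difference it gave -0.028 to 0.084 for Pgi, -0.11 to 0.025 for Gapdh1 and -0.017 to 0.13 for Pgk. It gave -0.0005 to 0.11 for Eno in light phase against subjective day, and -0.033 to 0.049 for Ald1 and -0.0045 to 0.13 for Gapdh1 in dark phase against subjective night. For LD against DD it gave -0.017 to 0.031 for Pfk and -0.058 to 0.003 for Eno. The 3′ GAPDH difference, by alternatives chosen after seeing the data, was 0.19 to 0.25 with 1 array left out. Without ZT2, ZT18 and CT2 it was 0.22 (exact permutation p = 0.0159, adjusted p = 0.0952 over the 6 controls). With clock hour as a block it was 0.22 (exact sign-flip p = 0.0312, the smallest that 6 hours allow, adjusted p = 0.0938).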
